A study of Mus musculus with 6 samples.

Results

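The genes described here encode proteins of tight junctions and of epithelial adhesion: *Tjp1*, *Tjp3*, *Ocln*, *Cldn3*, *Cldn4*, *Cldn6*, *Cldn7*, *Epcam* and *Cdh1*. They are 9 of the 16535 named genes on the array, taken through every probe whose design accession belongs to them, which gave 11 probes. They were chosen around *Tjp3*, which had been selected on its low signal in gonads without full-length *Nanos2*, so the comparisons of *Tjp3* with *Nanos2*+/- are a description and carry no test. Tight junctions seal the space between epithelial cells: claudins and occludin span the membrane, and the zonula occludens proteins, which *Tjp1* and *Tjp3* encode, tie them to the actin cytoskeleton. E-cadherin, encoded by *Cdh1*, and EPCAM hold neighbouring cells together, and in the fetal gonad both are known from germ cells. Sertoli cells build a tight junction barrier only after birth, with claudin 11 as a main component, and the ducts of the neighbouring mesonephros are epithelial.

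The arrays measured total RNA of E14.5 male gonads in 3 genotypes, with 2 biological replicates each, all on a mixed ICR and N2 background. *Nanos2*+/- gonads kept 1 working allele and served as the control. *Nanos2*-/- gonads had none, the null allele of the study's cross being a LacZ insertion. *Nanos2*-/-_Tg+ gonads had none either, but carried a transgene for 3×FLAG-tagged Nanos2-ΔN10, a protein without the N-terminal residues that bind the CCR4-NOT deadenylation complex. The transgene was under the *Nanos2* enhancer and, by the study's account, came from 1 mouse line. The *Nanos2*+/- arrays shared 1 slide and the remaining 4 arrays another, so genotype and slide cannot be told apart in any comparison with *Nanos2*+/-, whereas *Nanos2*-/-_Tg+ and *Nanos2*-/- were compared within 1 slide.

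All levels are log2 of the processed signal after each array was scaled to a common median and values under 5 were raised to 5, which is 2.32 on this scale. A level can be compared between arrays for 1 probe, but not between probes. On the arrays, 64.1 to 66.7% of probes were well above background, and 26712 that were so in both replicates of some genotype were tested with limma. Calls required an adjusted p (Benjamini-Hochberg) under 0.05 and a difference of 2-fold or more. The *Nanos2* probe stood at 9.42 and 10.78 in *Nanos2*+/-, was not well above background in *Nanos2*-/- and stood at 13.28 and 14.25 in *Nanos2*-/-_Tg+, as the genotypes require. Markers of the tissue were bright on every array. The summed signal of 7 Sertoli cell genes lay between 16.80 and 17.39 and that of 6 germ cell genes between 15.75 and 16.25.

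Upstream sequence was compared because several epithelial junction genes are textbook targets of the SNAIL and ZEB repressors, which bind the E-box CAGGTG. RefSeq windows of 300 bases on GRCm38.p6, from 250 before to 50 after a transcription start, were at hand for 8 of the 9 genes, all but *Cdh1*. Read on both strands (CAGGTG or CACCTG, which do not overlap each other), the E-box was in the windows of 7 of the 8 genes, all but *Tjp1*, against 22.6% of the 27025 genes with a window. By window it was in 9 of 11, against 20.2% of 32851. The stretches around one E-box of each of 5 genes are shown to let the shared letters be seen, 5′ to 3′ on the gene's strand, with the E-box in capitals. They lie at chr10:81291267-81291296 (minus strand, *Tjp3*), chr13:100552549-100552578 (minus strand, *Ocln*), chr17:23679260-23679289 (plus strand, *Cldn6*), chr11:69965352-69965381 (plus strand, *Cldn7*) and chr17:87635948-87635977 (plus strand, *Epcam*).
Tjp3: cacaaaccctccCACCTGcaggccggcctc
Ocln: ctaggggctcggCAGGTGggtcccagcgca
Cldn6: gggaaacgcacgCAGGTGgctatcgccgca
Cldn7: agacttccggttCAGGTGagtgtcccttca
Epcam: acccataaaaccCAGGTGtggaggagaagc
The first base of the E-box is 17 bases before the start in *Tjp3*, 68 in *Ocln*, 93 in *Cldn6*, 57 in *Cldn7* and 19 in *Epcam*. The genes that share these letters did not all share 1 pattern over the arrays, as the values below show, and the presence of a motif says nothing of its use.

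*Tjp3* encodes zonula occludens protein 3, a scaffold of the tight junction plaque. Its level was 8.10 and 8.03 in *Nanos2*+/-, 6.91 and 6.78 in *Nanos2*-/-, and 6.36 and 6.48 in *Nanos2*-/-_Tg+. The arrays of the 3 genotypes did not overlap, and replicates stood within 0.13 of each other. These values chose the gene: on average the signal was 2.34-fold lower in *Nanos2*-/- and 3.14-fold lower in *Nanos2*-/-_Tg+ than in *Nanos2*+/-. In bulk tissue, fewer cells of a type and less RNA per cell cannot be told apart. The step from *Nanos2*-/- to *Nanos2*-/-_Tg+ was not used in the choice. It was -0.43 on the log2 scale (SE 0.18, n = 2 and 2), with a gap of 0.30 between the nearest arrays, and did not pass the test (limma, adjusted p = 1).

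**Figure D1:**
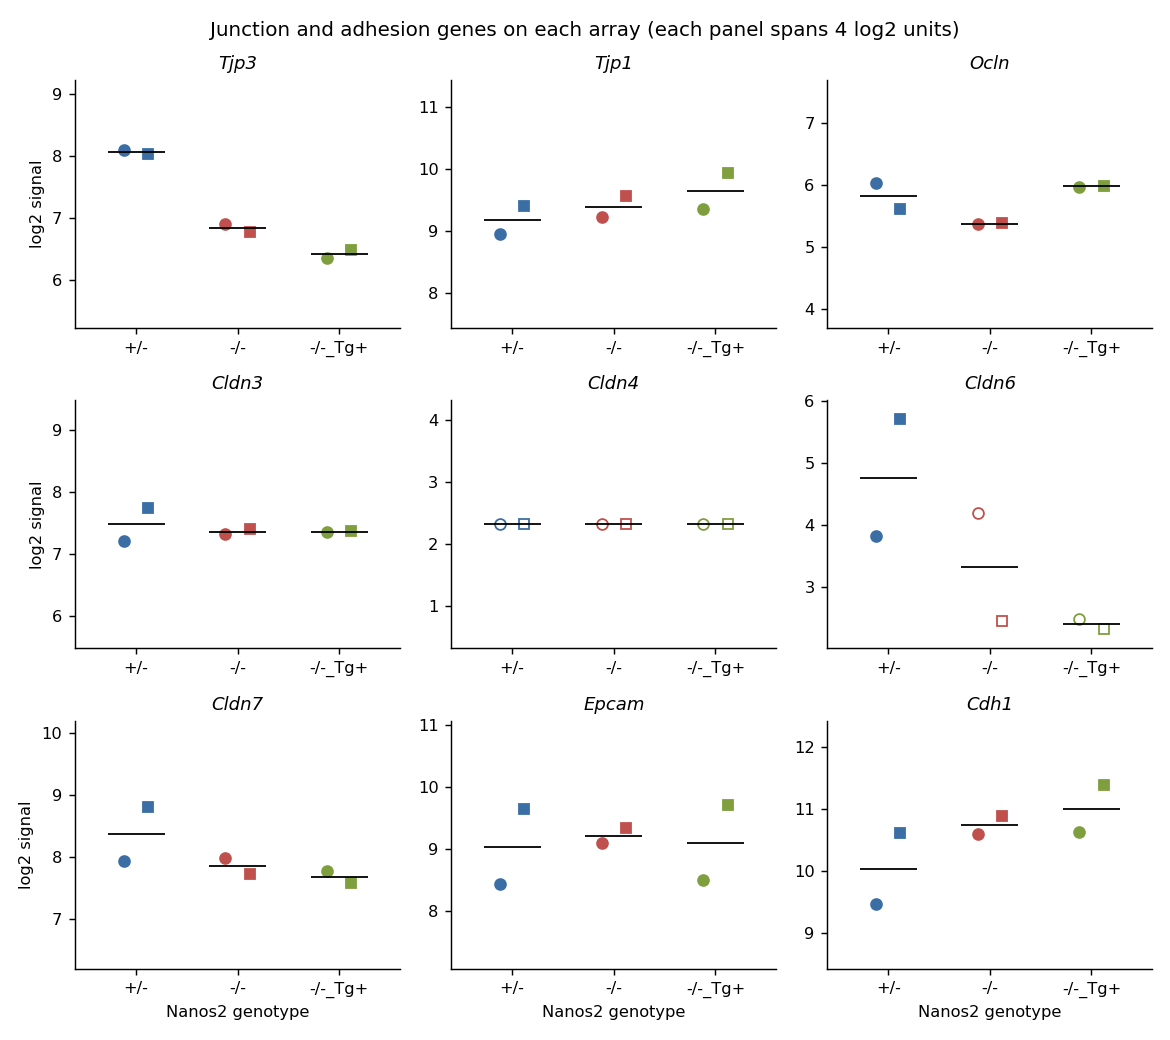
Log2 signal (vertical axis) of the brightest probe of each of the 9 genes on the 2 arrays of each *Nanos2* genotype (horizontal axis; circles are replicate 1, squares replicate 2, lines the mean of both). Open symbols mark a genotype in which fewer than 2 arrays were well above background. The *Tjp3* mean is 8.07 in *Nanos2*+/- against 6.84 and 6.42 in the other genotypes, *Cldn4* sits at the floor of 2.32 throughout, and *Epcam* and *Cdh1* have replicate 2 above replicate 1 in each genotype.

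None of the other genes passed the test. Besides *Tjp3*, 7 genes could be tested and 0 were called in any of the 3 comparisons, with adjusted p between 0.591 and 0.951 for *Nanos2*-/- against *Nanos2*+/-, between 0.248 and 0.979 for *Nanos2*-/-_Tg+ against *Nanos2*+/-, and at 1 for *Nanos2*-/-_Tg+ against *Nanos2*-/-. Calls were rare on the whole array: 0.0674%, 0.105% and 0.0187% of the probes tested were called in the same order. The 1 member called, *Tjp3* in *Nanos2*-/-_Tg+ against *Nanos2*+/-, was called in the contrast that had chosen it, and nothing is read from it. Unadjusted, limma gave a p below 0.05 for 0, 3 and 1 of the 7 genes: *Cldn6*, *Cldn7* and *Cdh1* in the second comparison and *Ocln* in the third. Of all probes, 9.08%, 11.6% and 2.74% did so. *Cldn6* entered the test only through *Nanos2*+/-, where its mean was highest, so nothing is read from its p. The means of *Cldn7* (8.37, 7.86 and 7.68) came in the same order of genotypes as those of *Tjp3*, with smaller steps. Without *Nanos2*+/- replicate 2, the *Cldn7* differences from *Nanos2*+/- were -0.08 and -0.26. How many probes shared this order was not counted.

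Of the 9 genes, 7 were well above background on every array. In *Nanos2*-/- against *Nanos2*+/-, 3 of these 7 were higher and 4 lower, and the arrays of the genotypes did not overlap for *Tjp3* and *Ocln*, against 36% of all probes. In *Nanos2*-/-_Tg+ against *Nanos2*+/-, 4 were higher and 3 lower, and the arrays did not overlap for *Tjp3*, *Cldn7* and *Cdh1*, against 38.9% of all probes. In *Nanos2*-/-_Tg+ against *Nanos2*-/- the arrays did not overlap for *Tjp3* and *Ocln*, against 31.4%. The median difference of the 7 genes was -0.12, 0.06 and 0.00, beside -0.04, -0.01 and 0.03 for all probes. *Tjp3* is among these 7 and was chosen on its fall from *Nanos2*+/-. The counts and medians against *Nanos2*+/- are therefore a description. Leaving *Tjp3* out, the genes without overlap were *Ocln* in the first comparison, and *Cldn7* and *Cdh1* in the second.

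*Tjp1* encodes zonula occludens protein 1, a relative of the *Tjp3* product with the same place in the plaque. Its brighter probe read 8.95 and 9.40 in *Nanos2*+/-, 9.22 and 9.56 in *Nanos2*-/-, and 9.36 and 9.93 in *Nanos2*-/-_Tg+. The genotypes overlapped, and the differences from *Nanos2*+/- were 0.22 (SE 0.27, adjusted p = 0.868 by limma) and 0.48 (SE 0.27, adjusted p = 0.560). Its second probe went the other way, with 5.73 and 5.44 in *Nanos2*+/-, 4.90 and 4.81 in *Nanos2*-/-, and 4.97 and 5.34 in *Nanos2*-/-_Tg+. Here both mutant genotypes lay below *Nanos2*+/- without overlap, by 0.73 and 0.43 on the log2 scale, with adjusted p = 0.346 and 0.495 (limma). The pair of probes therefore gave no common direction for *Tjp1*.

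*Ocln* encodes occludin, a membrane protein of the tight junction strand. It read 6.02 and 5.61 in *Nanos2*+/-, 5.36 and 5.38 in *Nanos2*-/-, and 5.96 and 5.98 in *Nanos2*-/-_Tg+. Only in *Nanos2*-/- did it lie below the other 2 genotypes, without overlap. The difference was -0.44 against *Nanos2*+/- (SE 0.20, adjusted p = 0.591 by limma). Within 1 slide, *Nanos2*-/-_Tg+ stood 0.59 above *Nanos2*-/- (95% interval 0.12 to 1.07, adjusted p = 1 by limma), a 1.51-fold difference. A second *Ocln* probe was not well above background in any genotype and was not tested.

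The claudins are the barrier-forming strand proteins, and the 4 measured here did not all share 1 pattern. *Cldn3* read 7.22 and 7.75 in *Nanos2*+/-, 7.32 and 7.41 in *Nanos2*-/-, and 7.36 and 7.37 in *Nanos2*-/-_Tg+. All 4 arrays without the wild-type gene lay between the pair of *Nanos2*+/- arrays, and both differences were -0.12 (SE 0.22). Those differences turned to 0.14 and 0.14 without *Nanos2*+/- replicate 2, and to 0.25 and 0.20 under normexp background correction, which also moved the median of all probes to 0.56 and 0.52. *Cldn4*, the neighbour of *Cldn3* on chromosome 5, stayed at the floor of 2.32 on all 6 arrays and was never well above background, so no fold can be given.

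*Cldn7* read 7.94 and 8.81 in *Nanos2*+/-, 7.99 and 7.73 in *Nanos2*-/-, and 7.78 and 7.59 in *Nanos2*-/-_Tg+. One array, *Nanos2*+/- replicate 2, stood above the other 5. The difference was -0.51 in *Nanos2*-/- (SE 0.29, adjusted p = 0.681 by limma) and -0.69 in *Nanos2*-/-_Tg+ (SE 0.29, adjusted p = 0.428). Without that array the differences fell in size to -0.08 and -0.26.

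*Cldn6*, a claudin of early embryonic epithelia, was near the lower limit of detection. It read 3.82 and 5.70 in *Nanos2*+/-, 4.19 and 2.45 in *Nanos2*-/-, and 2.49 and 2.32 in *Nanos2*-/-_Tg+. It was well above background on 2, 1 and 0 arrays in that order, and so entered the test only through *Nanos2*+/-. The bound for *Nanos2*-/-_Tg+ was at least 1.96-fold under *Nanos2*+/- (limma, adjusted p = 0.248). Without *Nanos2*+/- replicate 2 the bound was 1.02-fold, so it rested on that array, and the 2 arrays of *Nanos2*-/- were 1.75 apart.

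**Figure D2:**
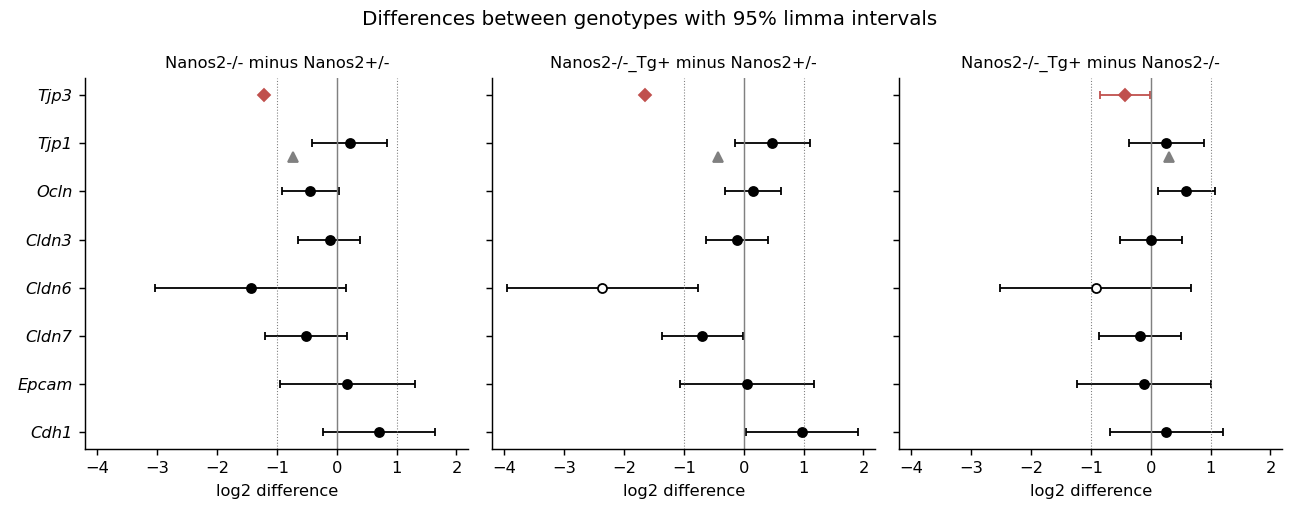
Log2 difference (horizontal axis) of each measured gene (vertical axis) in 3 comparisons of *Nanos2* genotypes, with 95% limma intervals as bars; dotted lines mark 2-fold. *Tjp3* (diamond) has no interval against *Nanos2*+/-, where its values chose it, open circles mark a genotype not well above background, and grey triangles are the second *Tjp1* probe. Apart from *Tjp3*, no gene was called, and *Ocln* is 0.59 higher in *Nanos2*-/-_Tg+ than in *Nanos2*-/-.

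The adhesion genes were not lower on average in either mutant genotype. *Cdh1* read 9.46 and 10.61 in *Nanos2*+/-, 10.59 and 10.89 in *Nanos2*-/-, and 10.62 and 11.38 in *Nanos2*-/-_Tg+. It was 0.71 higher in *Nanos2*-/- (SE 0.40, adjusted p = 0.680 by limma) and 0.97 higher in *Nanos2*-/-_Tg+ (SE 0.40, adjusted p = 0.419), where the nearest arrays were only 0.01 apart. Without *Nanos2*+/- replicate 1, the lowest array, the differences were 0.13 and 0.39. *Epcam* read 8.43 and 9.65 in *Nanos2*+/-, 9.09 and 9.34 in *Nanos2*-/-, and 8.50 and 9.71 in *Nanos2*-/-_Tg+. Its genotype means lay within 0.18 of each other, and the replicates of 1 genotype differed by up to 1.23.

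Some of these genes differed by replicate number. *Epcam*, *Cdh1* and the brighter probe of *Tjp1* were higher on replicate 2 than on replicate 1 in all 3 genotypes, but the second *Tjp1* probe was not. Of 6 germ cell genes measured, *Dazl*, *Ddx4* and *Pou5f1* were also higher on replicate 2 in all 3 genotypes, whereas *Dnd1*, *Mael* and *Stk31* were not. The widest gap was that of *Pou5f1*, which read 10.62 and 12.43 in *Nanos2*+/-, 10.53 and 12.39 in *Nanos2*-/-, and 10.78 and 12.61 in *Nanos2*-/-_Tg+. A higher replicate 2 was not particular to germ cell genes. The Sertoli cell genes *Aard*, *Cst9* and *Dhh* were higher on replicate 2 in all 3 genotypes. By their brightest probes, *Amh*, *Ptgds*, *Sox8* and *Sox9* were not. The share of all probes with this order was not counted. The labels do not say what a number shares across genotypes, and the part of germ cell content in the replicate differences was not tested. In *Nanos2*+/- the replicates of the 8 measured genes differed by a median of 0.696, against 0.332 for all probes. In *Nanos2*-/- the medians were 0.251 and 0.198, and in *Nanos2*-/-_Tg+ they were 0.178 and 0.183.

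A marker of the mesonephric duct moved with 2 of the claudins. *Cdh16*, a cadherin of duct epithelium, read 6.05 and 8.60 in *Nanos2*+/-, 7.05 and 3.94 in *Nanos2*-/-, and 4.57 and 5.12 in *Nanos2*-/-_Tg+. *Cldn7* and *Cdh16* had the same 3 highest arrays, from the top *Nanos2*+/- replicate 2, *Nanos2*-/- replicate 1 and *Nanos2*+/- replicate 1. These were also the 3 arrays on which *Cldn6* was well above background. Of 8 duct markers 6 were measured, and their summed signal lay at 8.83 to 10.35 on the *Nanos2*+/- arrays, at 9.28 to 9.80 on those of *Nanos2*-/- and at 8.85 to 9.43 on those of *Nanos2*-/-_Tg+. The defining markers *Pax2* and *Ret* were not well above background on any array. The part of duct tissue in the claudin values was not tested. *Tjp3* did not share that order, since its highest array was *Nanos2*+/- replicate 1.

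**Figure D3:**
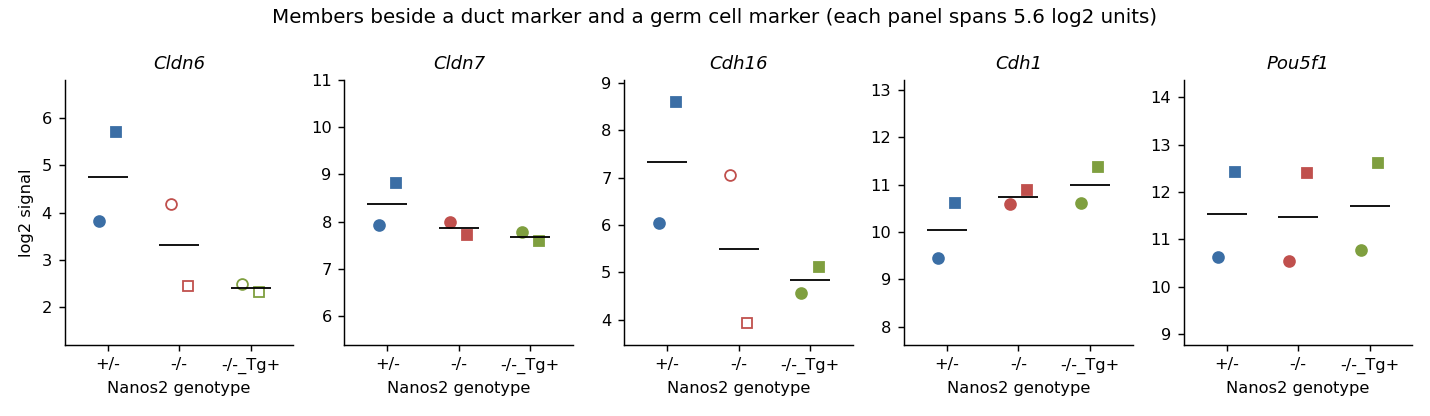
Log2 signal (vertical axis) of *Cldn6*, *Cldn7* and the duct marker *Cdh16*, and of *Cdh1* and the germ cell marker *Pou5f1*, on each array by *Nanos2* genotype (horizontal axis; circles replicate 1, squares replicate 2, lines the mean; open symbols as in the plot of the 9 genes). *Cldn6*, *Cldn7* and *Cdh16* are highest on the second *Nanos2*+/- array, and *Pou5f1* is higher on replicate 2 in each genotype.

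The 5 probes closest to *Tjp3* in pattern were not those of junction genes. Among 2093 named probes well above background on all 6 arrays and spanning at least 1 log2 unit, the 5 closest were *Rpl3l* (Pearson r = 0.999), *Mogat2* (0.993), *Ppp4r2* (0.991), *Pcm1* (0.991) and *Dusp14* (0.990), each over 6 arrays of 3 genotypes, with no p. *Rpl3l*, a ribosomal protein gene known from muscle, read 7.20 and 7.19 in *Nanos2*+/-, 6.30 and 6.24 in *Nanos2*-/-, and 5.89 and 6.03 in *Nanos2*-/-_Tg+. *Mogat2*, an enzyme of triacylglycerol synthesis, read 9.11 and 8.84, 8.09 and 7.96, and 7.62 and 7.77 in the same order. They share with *Tjp3* the slide layout as well as the genotypes. Only 5 of the 2093 probes were taken, so the ranking does not show whether junction genes followed *Tjp3*.

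Other genes of the junction were counted from lists of known components. Of the other claudins, 9 of 15 on the array could be tested, and 0 were called in any comparison. Their median difference was 0.02 in *Nanos2*-/- and 0.03 in *Nanos2*-/-_Tg+ against *Nanos2*+/-. *Cldn11*, the Sertoli cell claudin, read 10.34 and 10.96, 10.76 and 10.90, and 11.21 and 11.28 in the 3 genotypes, and was 0.59 higher in *Nanos2*-/-_Tg+ than in *Nanos2*+/- (limma, adjusted p = 0.399). *Cldn5*, known from endothelium, had the lowest difference in *Nanos2*-/-, at -0.36 (limma, adjusted p = 0.685). *Cldn1* stood 0.69 higher in *Nanos2*-/-_Tg+ than in *Nanos2*-/-, with 6.28 and 6.06 against 5.45 and 5.51 (limma, adjusted p = 1), and its second probe gave 0.69 as well. Against *Nanos2*+/- the *Cldn1* probes differed, at -0.20 and -0.67 in *Nanos2*-/- and 0.49 and 0.02 in *Nanos2*-/-_Tg+. *Cldn2*, a pore-forming claudin, was lowest in the other comparisons, at -0.25 and -0.27 in *Nanos2*-/-_Tg+ against *Nanos2*+/- and *Nanos2*-/-.

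Among 8 other membrane proteins of the tight junction, 0 were called. Of these, 7 were well above background on every array. In *Nanos2*-/-, both arrays lay below both *Nanos2*+/- arrays for 2 of the 7 and above them for 0. In *Nanos2*-/-_Tg+ they lay below for 2 of the 7 and above for 1. Of all probes, 21.7% and 20.3% lay below in the same order. *Marveld3*, a relative of occludin, read 6.66 and 5.51 in *Nanos2*+/- and was not well above background on any of the other 4 arrays, where it lay between 3.14 and 3.64. Its level there was lower by at least 5.33-fold for *Nanos2*-/- (limma, adjusted p = 0.0900) and by at least 4.91-fold for *Nanos2*-/-_Tg+ (adjusted p = 0.0669), and it entered the test only through *Nanos2*+/-. Its second probe read 4.39 and 5.57 in *Nanos2*+/- and was not well above background elsewhere either, with bounds of at least 2.57-fold and 2.28-fold (limma, adjusted p = 0.255 and 0.156). *Crb3*, a polarity protein of the apical membrane, was measured on every array, with 7.43 and 6.59 in *Nanos2*+/-, 5.64 and 4.97 in *Nanos2*-/-, and 4.61 and 5.04 in *Nanos2*-/-_Tg+. It was 3.26-fold lower in *Nanos2*-/- (limma, adjusted p = 0.221) and 4.55-fold lower in *Nanos2*-/-_Tg+ (adjusted p = 0.0833). The highest differences were 0.09 for *F11r* in *Nanos2*-/-, 0.20 for *Jam3* in *Nanos2*-/-_Tg+ against *Nanos2*+/- (both junctional adhesion molecules) and 0.30 for *Marveld2*, which encodes tricellulin, in *Nanos2*-/-_Tg+ against *Nanos2*-/-, where its second probe gave 0.47. Against *Nanos2*+/-, the median of the list was -0.22 in *Nanos2*-/- and -0.05 in *Nanos2*-/-_Tg+. For the 7 genes well above background on every array it was -0.08 and -0.04, beside -0.04 and -0.01 for all probes.

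The plaque and polarity genes (13 of 14 on the array) and the other adherens junction genes (11 of 11) gave 0 calls too, with medians of -0.12 and -0.02 in *Nanos2*-/- and -0.08 and 0.03 in *Nanos2*-/-_Tg+ against *Nanos2*+/-. The lowest plaque genes were *Magi3*, a scaffold protein, with -0.62 in *Nanos2*-/- (limma, adjusted p = 0.646), and *Pard6b*, of the PAR polarity complex, with -0.86 in *Nanos2*-/-_Tg+ (adjusted p = 0.391). The highest was *Amotl2*, an angiomotin family scaffold, with 9.85 and 9.49 in *Nanos2*+/-, 10.06 and 9.96 in *Nanos2*-/-, and 10.06 and 10.38 in *Nanos2*-/-_Tg+, differences of 0.34 and 0.55 (limma, adjusted p = 0.716 and 0.387). *Nectin4*, an adhesion molecule of adherens junctions, read 5.01 and 4.09 in *Nanos2*+/-, 2.32 and 2.32 in *Nanos2*-/-, and 3.19 and 4.13 in *Nanos2*-/-_Tg+. The bound for *Nanos2*-/- was at least 1.91-fold under *Nanos2*+/- (limma, adjusted p = 0.162) and it entered the test only through *Nanos2*+/-, being well above background on 3 of 6 arrays. *Vcl*, which encodes vinculin, had the highest difference of its list by its brighter probe, at 0.29 and 0.47 against *Nanos2*+/-. Its second probe went the other way, with 7.13 and 7.14 in *Nanos2*+/-, 6.41 and 6.80 in *Nanos2*-/-, and 6.49 and 6.66 in *Nanos2*-/-_Tg+, differences of -0.53 and -0.56 (limma, adjusted p = 0.5 and 0.352). *Vcl* therefore had no common direction. In *Nanos2*-/-_Tg+ against *Nanos2*-/-, *Cdh3*, which encodes P-cadherin, was lowest of its list at -0.18.

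Most other epithelial genes read lower without full-length *Nanos2*. Of 23 genes 20 were tested, 18 of them well above background on every array, and 0 were called. Of these 18, 14 were lower and 3 higher in *Nanos2*-/- than in *Nanos2*+/-, and 15 were lower and 2 higher in *Nanos2*-/-_Tg+. Both arrays lay below both *Nanos2*+/- arrays for 10 and 8 of the 18 genes, where 21.7% and 20.3% of all probes did so. The medians of the 18 were -0.33 and -0.38, beside -0.04 and -0.01 for all probes. *Nanos2*-/-_Tg+ against *Nanos2*-/- gave 0.02, beside 0.03. Under normexp the median of all 20 was 0.12 and -0.04, which is -0.44 and -0.56 relative to the median of all probes. The other claudins, with medians of 0.02 and 0.03 in the main run, stood at -0.44 and -0.41 on that relative scale. The relative values under normexp therefore do not set the epithelial list apart. With 1 array left out the median of the 20, -0.35 and -0.38, ranged from -0.48 to -0.17 and from -0.47 to -0.24, and it was nearest to 0 without *Nanos2*+/- replicate 2. The list was set with earlier results of these arrays known, and genotype and slide cannot be told apart here.

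*Pkp3*, a desmosomal plaque protein, had the lowest difference of that list, with 7.45 and 5.94 in *Nanos2*+/-, 4.67 and 4.86 in *Nanos2*-/-, and 5.17 and 4.39 in *Nanos2*-/-_Tg+. The differences were -1.93 (SE 0.47, adjusted p = 0.266 by limma) and -1.92 (SE 0.47, adjusted p = 0.191), and -1.18 and -1.16 without *Nanos2*+/- replicate 1. Picked after their values were seen, *Prss8* and *St14* encode the paired membrane proteases prostasin and matriptase. *Prss8* read 7.18 and 7.30, 6.36 and 6.19, and 6.45 and 6.21 in the 3 genotypes, so that replicates stood within 0.24 of each other. *St14* read 7.62 and 7.16, 6.57 and 6.29, and 6.70 and 6.67. *Spint2*, which encodes an inhibitor of such proteases, was higher instead, at 5.75 and 6.45, 6.80 and 6.95, and 7.04 and 7.31, a difference of 0.77 (SE 0.26, adjusted p = 0.424 by limma) and 1.07 (SE 0.26, adjusted p = 0.191), or 0.42 and 0.72 without *Nanos2*+/- replicate 1. *Rab25*, an epithelial trafficking GTPase also picked afterwards, read 6.69 and 4.32 in *Nanos2*+/- and between 3.81 and 4.24 on the other 4 arrays, so its difference rested on 1 array. In *Nanos2*-/-_Tg+ against *Nanos2*-/- the list ran from -0.48 for *Dsg2*, a desmosomal cadherin, to 0.87 for *Elf3*, an epithelial transcription factor. *Elf3* read 5.37 and 3.46 in *Nanos2*-/-, where only 1 array was well above background. In *Nanos2*-/-_Tg+ it read 5.61 and 4.96, so the genotypes overlapped. The second *Dsg2* probe gave 0.20.

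**Figure D4:**
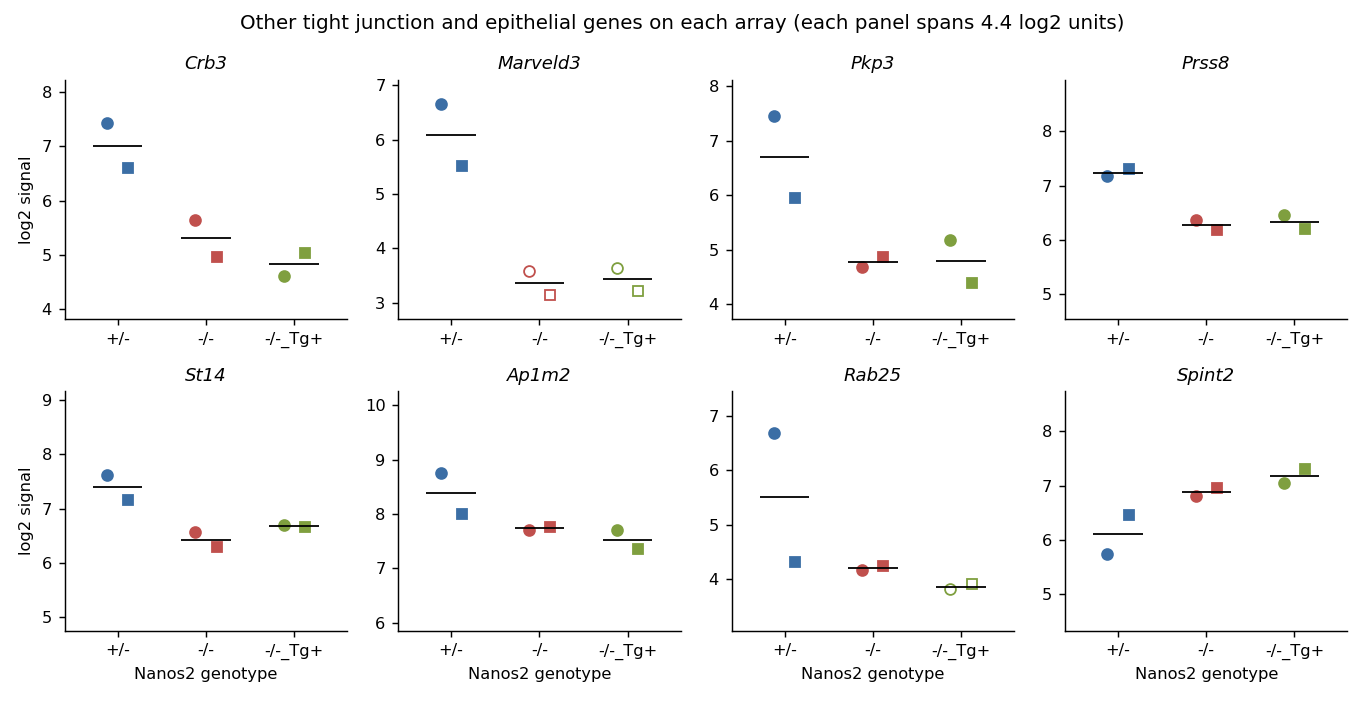
Log2 signal (vertical axis) of 8 tight junction and epithelial genes outside the 9, by *Nanos2* genotype (horizontal axis; circles replicate 1, squares replicate 2, lines the mean; open symbols where fewer than 2 arrays of the genotype were well above background). *Crb3*, *Marveld3*, *Pkp3*, *Prss8*, *St14* and *Ap1m2* lie below *Nanos2*+/- on all 4 other arrays, *Rab25* does so with 1 high array, and *Spint2* lies above. *Prss8*, *St14*, *Ap1m2* and *Rab25* were picked after their values were seen, so the panels do not represent their lists.

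**Figure D5:**
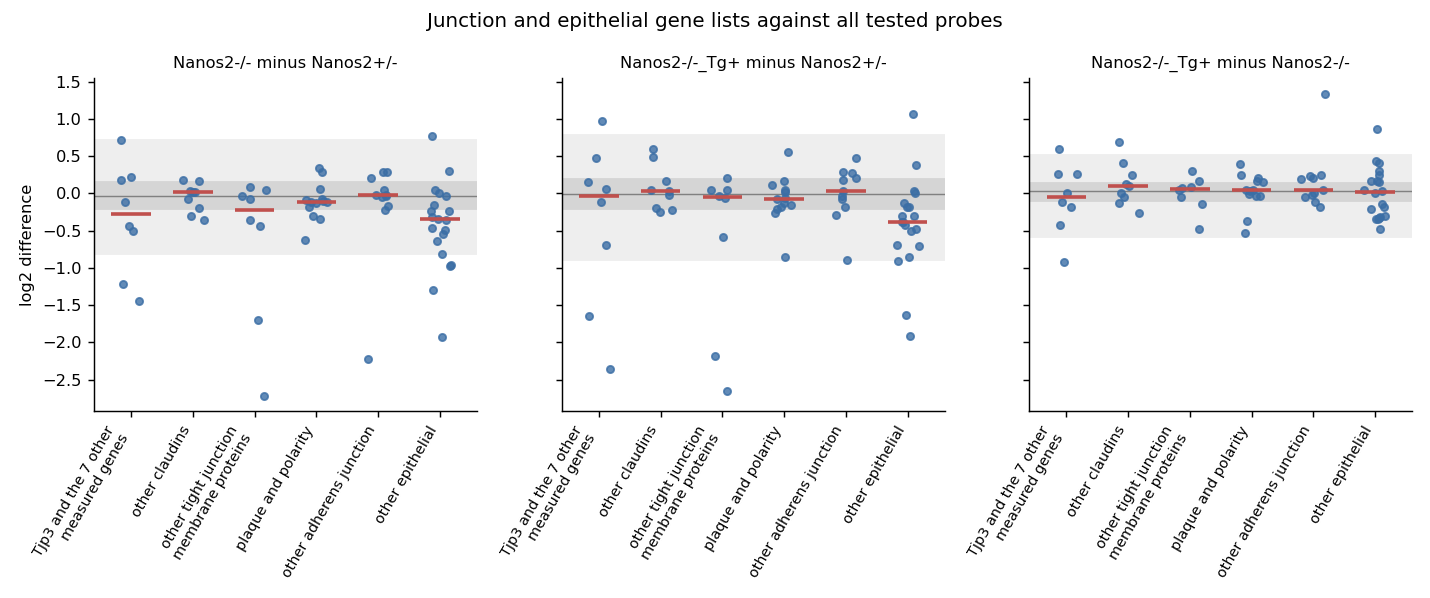
Log2 difference (vertical axis) of each measured gene (points) by list (horizontal axis) in the 3 comparisons, with the list's median in red. Grey bands hold the central 50% and 95% of all 26712 tested probes and the grey line their median. Against *Nanos2*+/-, most epithelial genes lie below the line, and *Nanos2*-/-_Tg+ minus *Nanos2*-/- shows no such shift.

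Within the slide, 0 of the 8 genes tested were called between *Nanos2*-/-_Tg+ and *Nanos2*-/-, where 0.0187% of all probes were called. *Tjp3* was 0.43 lower on the log2 scale than in *Nanos2*-/- and *Ocln* 0.59 higher, and the differences of *Tjp1*, *Cldn3*, *Cldn7*, *Epcam* and *Cdh1* lay between -0.18 and 0.26. *Cldn4* and *Cldn6*, not well above background in *Nanos2*-/-_Tg+, gave no measured difference. The 95% intervals of *Tjp1*, *Cldn7*, *Epcam* and *Cdh1* reached from -1.23 to 1.20 at most, so a 2-fold difference lies within those of *Epcam* and *Cdh1*. For a single probe, 2 arrays against 2 leave 0.333 as the smallest two-sided p of an exact permutation test.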

How the data were processed

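Total RNA of each gonad sample (0.20 µg) had been labelled with Cy3 and hybridized to Agilent whole mouse genome 4x44K arrays. The deposited scanner files hold the processed intensity of each spot, which the authors' Feature Extraction software (9.5 per the labels) made by background subtraction and detrending. The deposited value table holds the same intensity within 0.497%. Here control spots (1639 of 45018) and outlier spots were left out, arrays were scaled to a common 50th percentile (medians 66.2 to 96.6), the floor of 5 was set, and log2 values of the spots of 1 probe were averaged (41174 probes). No spot was saturated. Intensities carry no counts, and the number of arrays limits the precision.

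Probes were named through RefSeq accessions of the array's design (23374 probes matched), and no gene coordinates were carried over, since the design and the RefSeq table use different builds. Each gene is given by its probe with the highest mean, and other measured probes of members and of the named genes of the lists are given beside it. limma 3.58.1 (lmFit, eBayes, R 4.3.3, data.table version 1.17.8) was fitted to all 6 arrays without a replicate block, with 4.55 prior degrees of freedom. The fit was tested on simulated data. A probe not well above background on both arrays of a genotype is given as a bound: the bright genotype's mean against the mean, over the dim arrays, of the higher of the lowest signal well above background and the probe's own. Promoter windows came from RefSeq (GRCm38.p6). Python 3.11.15, pandas 2.3.3 and matplotlib 3.10.9 were used for these and the figures.

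The members, the lists and the tests were chosen with earlier results of these data known. Named are all members, the genes of each list with the largest rise or fall, *Nanos2*, and the 5 probes most like *Tjp3*. Markers and a few epithelial genes were named in addition after their values were seen. Alternatives were quantile normalization, the 75th percentile, background correction by normexp (offset 50, on the median spot and background signals, because the files read here have no mean signal column), a floor set before scaling, a floor of 20, other filters on dim probes, outlier spots kept, the value table, a replicate block, only the 4 arrays compared, an intensity trend, the methods' t-test, other probes and each array left out.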

Additional observations from a re-analysis of the deposited data

How the results depend on the processing

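None of the 7 members other than *Tjp3* was called under any alternative run. The number of called probes, 18, 28 and 5 for *Nanos2*-/- against *Nanos2*+/-, *Nanos2*-/-_Tg+ against *Nanos2*+/- and *Nanos2*-/-_Tg+ against *Nanos2*-/-, moved more. It was 5 and 10 in the first and second with the 75th percentile, 5 and 9 with quantile normalization, 1, 5 and 1 with only probes well above background on all 6 arrays, 2, 4 and 0 without a filter, 38, 85 and 1 with only the 4 arrays compared, and 5, 18 and 3 with an intensity trend. It was 0 throughout with a floor of 20 and with normexp. At an unadjusted p below 0.05 and a difference of 2-fold or more, limma gave 591, 745 and 174 probes in the main run. On that count it gave 298, 408 and 44 with a floor of 20, and 436, 446 and 12 with normexp. With the same 2-fold limit, the methods' t-test gave 153, 234 and 40 probes unadjusted and 0 after adjustment. With 1 array left out, the counts ranged from 13 to 47, from 21 to 85 and from 1 to 29, a lone array being assumed to vary like the other groups. With the replicate block they were 18, 145 and 4. The replicate differences of the genotypes correlated at 0.355, 0.313 and 0.259 over 26712 probes, which only 2 numbers cannot settle as pairing, and the block changed no member's call.

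Normexp moved the median of all probes to 0.56 and 0.52 against *Nanos2*+/-. *Tjp3* stood there at -0.43, -0.70 and -0.27, or -0.99 and -1.22 relative to those medians, and elsewhere stayed within its replicate SD. *Cldn3* turned to 0.25 and 0.20 and *Ocln* to -0.06, all of them below the shifted median. The medians of the junction lists against *Nanos2*+/- lay between -0.44 and 0.23 relative to it. Other turns of direction came from 1 array or probe. The second *Tjp1* probe gave -0.73 and -0.43. With 1 array left out, *Epcam* ranged from -0.44 to 0.79, from -0.55 to 0.68 and from -0.72 to 0.49, *Cldn3* against *Nanos2*+/- from -0.39 to 0.14 and from -0.38 to 0.14, *Ocln* in *Nanos2*-/-_Tg+ against *Nanos2*+/- from -0.05 to 0.36, *Tjp1* in *Nanos2*-/- from -0.01 to 0.44, and *Tjp1* and *Cdh1* in *Nanos2*-/-_Tg+ against *Nanos2*-/- from -0.03 to 0.55 and from -0.12 to 0.64. The cause of these moves was not tested. Precision was limited by 2 arrays a genotype and, for *Cldn4*, *Cldn6* and *Marveld3*, by signal near background.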
